A study of Sus scrofa with 48 samples.

Results

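The collagen genes of pig longissimus muscle were followed over 48 barrows of the Large White breed, each hybridised on its own array of the 60 K pig oligonucleotide microarray. The pigs came from a pair of selection lines bred in opposite directions for residual feed intake (RFI), the feed eaten beyond that predicted from growth and maintenance, and low RFI pigs are the more efficient. Within each line, 12 pigs were fed ad libitum a diet high in fat and fiber (HF) and 12 a diet low in both (LF), which made the groups low RFI on HF, high RFI on HF, low RFI on LF and high RFI on LF. The members were the probes whose name or description carried a collagen chain symbol, 92 of the 60305 probes on the array, and a probe was kept when 12 or more of the 48 arrays flagged its spot as well above background. The 92 probes named 38 of the 14625 gene symbols on the array. This filter kept 74 of the 92, and 2 of these were COL4A3BP, a ceramide transfer protein whose symbol only looks like a collagen chain, so that 72 probes of 27 collagen genes were tested.

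Collagens are secreted proteins of 3 polypeptide chains wound into a helix, in which glycine recurs at a fixed spacing along each chain. In muscle, types I, III and V build the fibrils of the connective tissue sheaths, type XIV coats fibril surfaces, type IV forms the network of the basement membrane around each fibre and capillary, and type VI forms beaded filaments between them. Type VII, encoded by COL7A1, is known for the anchoring fibrils that fasten the epidermis to the dermis. Most of these chains are made by fibroblasts, and type IV also by endothelium and muscle fibres.

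The collagen probe with the widest difference between the lines was 1 of the 5 COL7A1 probes. The 5 did not move together, so that all 5 are shown. They share no run of 20 bases with each other or with another probe of the array. Capitals mark GG at every ninth base, the first bases of a glycine codon at the spacing of the collagen helix, where this held along the whole probe.

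COL7A1 A_72_P444117: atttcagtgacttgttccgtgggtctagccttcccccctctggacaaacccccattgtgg
COL7A1 A_72_P509990: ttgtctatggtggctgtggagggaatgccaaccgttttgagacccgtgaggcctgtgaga
COL7A1 A_72_P664371: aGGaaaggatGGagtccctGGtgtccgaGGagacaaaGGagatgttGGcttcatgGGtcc
COL7A1 A_72_P414128: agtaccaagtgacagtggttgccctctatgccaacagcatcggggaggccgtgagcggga
COL7A1 O7141: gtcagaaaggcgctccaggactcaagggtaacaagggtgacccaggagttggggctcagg

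Of the 72 tested collagen probes, 5 carried this repeat on the printed strand (6.94%), against 11 of all 60305 probes (0.0182%). It was present on the opposite strand in 1 tested probe, O6202 of the fibrillar chain COL11A1, and in O13998 of COL9A1, which was not kept. O6202 was the last probe inside the filter, well above background on 12 arrays, and O13998 the first outside it, on 10 arrays. The COL11A1 probe is set below beside O6313 of COL4A1, which carries the repeat on the printed strand. In O6202 the capitals are CC, the complement of GG.

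COL11A1 O6202: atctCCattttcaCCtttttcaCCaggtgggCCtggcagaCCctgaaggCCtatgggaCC
COL4A1 O6313: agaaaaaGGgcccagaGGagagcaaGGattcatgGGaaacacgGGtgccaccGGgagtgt

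The 18 probes outside the filter included every probe of 10 genes. These were COL2A1, COL9A1 and COL9A2 of cartilage, the basement membrane chains COL4A3, COL4A4 and COL4A5, and COL13A1, COL19A1, COL22A1 and COL28A1, none of which was well above background on more than 10 arrays. The type IV collagen measured here was therefore COL4A1, with 2 tested probes, and COL4A2, with 1. All 69 probes of 8 muscle fibre genes passed the filter, but so did 17 of 17 endothelial and 25 of 26 adipocyte marker probes. Passing the filter therefore does not test the tissue label.

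On each array between 59.2% and 74.2% of the probes were well above background. The arrays lay on 6 slides, each with 2 arrays of every group. The levels below are log2 processed signals from which the mean of all tested probes on that array was subtracted, so that a level can be compared between pigs for a probe but not between probes. Differences were tested in limma, with Benjamini-Hochberg adjustment over all 42125 tested probes and a threshold of 0.05, and a line difference is high RFI minus low RFI, averaged over both diets. The 2 arrays least like the others (mean correlations of 0.975 and 0.977) were both of high RFI pigs on HF, and counts without them are given where they change.

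Across the family, collagen probes were more often higher than lower in the high RFI line. Of the 72 tested probes, 20 passed the threshold for the line difference (27.8%), against 16.4% of all tested probes. Of these, 19 were higher in the high RFI line (26.4%, against 6.57% of all tested probes) and 1 was lower (1.39%, against 9.85%). The 19 belonged to 9 genes, COL1A1, COL1A2, COL5A1, COL5A2, COL5A3, COL14A1, COL21A1, COL4A1 and COL7A1. Of the 19, 9 were of COL14A1, and 1 was of COL7A1, which had 4 tested probes. The median line difference of the 72 probes was 0.14 on the log2 scale, against -0.03 over all tested probes, and 0.14 without the COL14A1 probes. The samples were whole muscle, in which fewer cells of a type and less RNA per cell cannot be told apart. Probes of a gene share its transcript and some share bases, so that these counts are not over independent measurements, and with the highest probe of each gene 6 of 27 passed. With no filter on dim probes 11 collagen probes were called, all 11 among the 20, when 6.42% of all probes were.

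**Figure D1:**
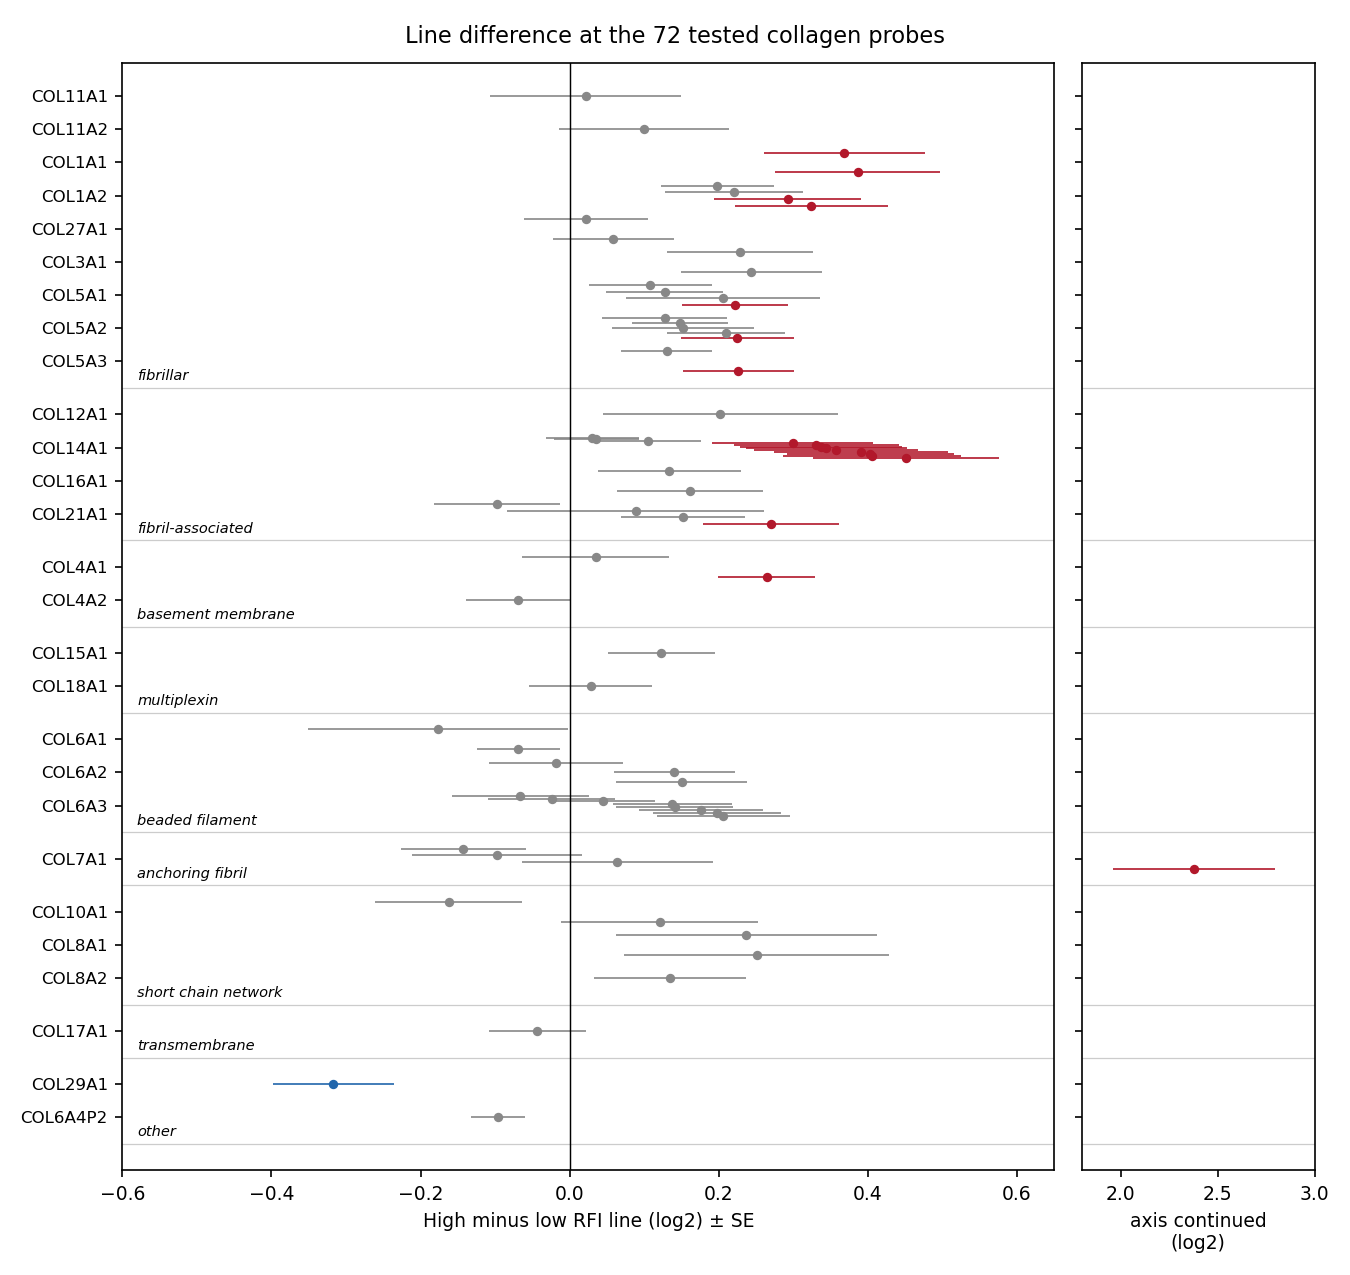
Line difference (high minus low RFI, log2, horizontal axis, continued in the right panel) for each of the 72 tested collagen probes, grouped by gene and class, with the standard error. Red points (higher in the high RFI line) and blue points (lower) passed the adjusted threshold, and grey points did not; all 23 fibrillar probes lie above 0, and the COL7A1 probe at 2.38 stands alone.

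For A_72_P444117 the 4 groups of 12 pigs did not share a single spread of levels. In low RFI pigs on HF the level ran from 2.82 over a median of 4.91 to 7.72, and in low RFI pigs on LF from 2.75 over 4.71 to 6.89. In high RFI pigs on HF it ran from 6.57 over 7.24 to 7.66, and on LF from 6.66 over 7.38 to 7.63. The low RFI pigs stood at separate levels with nothing between, 12 of 24 from 2.75 to 3.15 and the other 12 from 6.35 to 7.72, whereas all 24 high RFI pigs were at 6.57 or above. On each diet 6 of the 12 low RFI pigs were at the lower level.

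The line difference of this probe was 2.38 (SE 0.42, adjusted p = 9.39e-05), with 4.89 ± 2.03 in the low RFI line and 7.27 ± 0.33 in the high RFI line (SD, n = 24 pigs each in the limma fit). It was 2.17 on HF (SE 0.59, limma adjusted p = 0.0225) and 2.59 on LF (SE 0.59, limma adjusted p = 0.00942). Because the low RFI values fell at separate levels, their mean lies where no pig was, and the SD is the distance between levels more than a spread around the mean. Within slides the difference ran from 0.36 to 4.41 and was above 0 on 6 of 6, and the number of low RFI pigs at the lower level varied from 0 to 4 of the 4 on a slide. The spot was well above background on all 48 arrays and saturated on none. The place of this probe in the COL7A1 transcript was not determined here, and whether it overlaps a sequence variant or measures another transcript was not tested.

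The gap of 3.20 between the levels was rare on this array. Of the 42125 tested probes, 22 (0.0522%) had a gap of at least 2 with 5 or more pigs on each side, and 6 of them, this one included, had a gap as wide. Among the other collagen probes the widest gap so measured was 0.34, for COL14A1 A_72_P683176. The search for gaps was made after the levels of A_72_P444117 had been seen.

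The other COL7A1 probes had no such pattern. For A_72_P509990, well above background on 48 arrays, the level ran from -2.24 over a median of -1.81 to -1.23 in low RFI pigs on HF, from -2.25 over -1.72 to -1.18 in high RFI pigs on HF, from -2.03 over -1.63 to -1.05 in low RFI pigs on LF and from -2.46 over -1.92 to -1.37 in high RFI pigs on LF. The groups overlapped throughout, with a line difference of -0.14 (SE 0.08, limma adjusted p = 0.241). For A_72_P664371, well above background on all arrays, the medians were -2.87, -2.77, -2.83 and -3.15 in the same order of groups, and the line difference was 0.06 (SE 0.13, limma adjusted p = 0.776).

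For A_72_P414128, well above background on 25 of 48 arrays, the line difference was -0.10 (SE 0.11, limma adjusted p = 0.596). Probe O7141 was well above background on 2 arrays, 1 of each line on HF, and was not tested. The 95% intervals of the 3 tested probes that were not called lay between -0.33 and 0.32, and the difference of A_72_P444117 was outside them. A_72_P414128 lay near background, where a drop of that size could not show, so that its interval does not decide the question. A further probe described as hamster type VII collagen, A_72_P387428, carried no symbol and so was no member, but was assigned to the same assembled transcript as A_72_P444117 and A_72_P509990. It was looked up after the others had been seen, and its line difference was -0.20 (SE 0.09, limma adjusted p = 0.111).

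**Figure D2:**
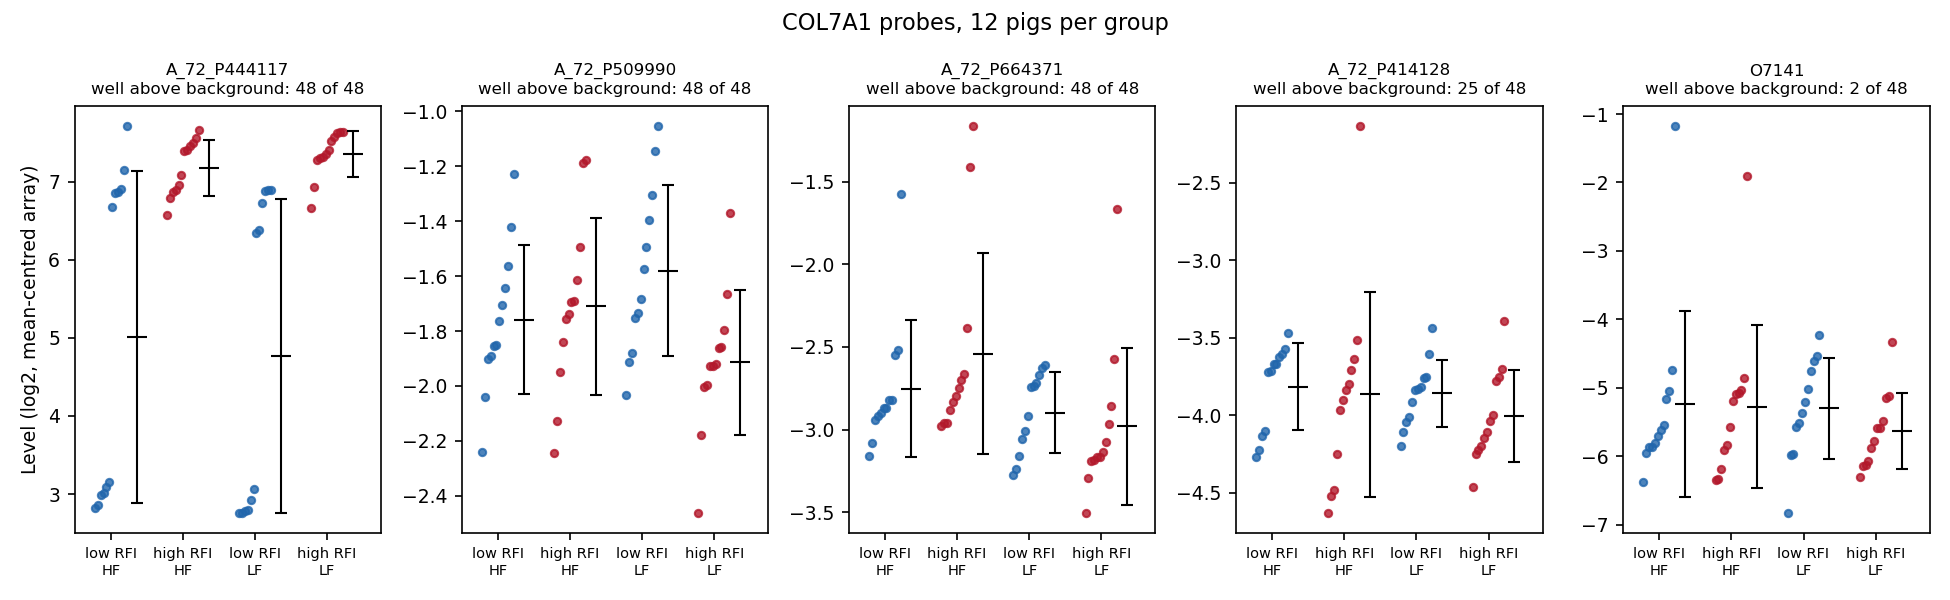
Level of the 5 COL7A1 probes (log2, centred array, vertical axes with their own ranges) in each of 12 pigs of every line and diet, with the mean and SD as a black bar. At A_72_P444117, 6 of 12 low RFI pigs on each diet lie at 3.15 or below and all other pigs at 6.35 or above, while in the other panels the groups overlap.

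Within the high RFI line, where A_72_P444117 stood at a single level, it was set against the other COL7A1 probes over 24 pigs. Pearson's r was -0.20 with A_72_P509990 (adjusted permutation p = 0.475, Spearman's rho -0.19, adjusted p = 0.619), -0.47 with A_72_P664371 (adjusted p = 0.0672, rho -0.33, adjusted p = 0.450), 0.00 with A_72_P414128 (adjusted p = 0.985, rho 0.00) and -0.22 with A_72_P387428 (adjusted p = 0.475, rho -0.16). None of the 4 relations passed, and without the 2 pigs farthest from the median r lay between -0.44 and -0.22. The array files assigned the 4 Agilent COL7A1 probes to the same Ensembl transcript, and 3 of them, all but A_72_P444117, also to the RefSeq COL7A1 transcript model.

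Among the fibrillar collagens, which make up the bulk of the connective tissue, COL1A1 and COL1A2 were higher in the high RFI line. COL1A1 encodes the chain present as a pair in each type I molecule, and both of its probes passed. For the brighter, O7301, the level ran from 5.25 over a median of 5.62 to 6.28 in low RFI pigs on HF and from 5.80 over 6.24 to 6.78 in high RFI pigs on HF. On LF it ran from 5.36 over 5.86 to 6.70 in low RFI pigs and from 5.44 over 6.07 to 6.98 in high RFI pigs. On HF the lowest high RFI pig stood above the low RFI median, while on LF the lines overlapped over most of their range.

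The line difference of O7301 was 0.37 (SE 0.11, limma adjusted p = 0.0152), a 1.29-fold difference, and the low RFI mean was exceeded by 20 of 24 high RFI pigs. It was 0.53 on HF (SE 0.15, limma adjusted p = 0.0313) and 0.21 on LF (SE 0.15, limma adjusted p = 0.526). The second COL1A1 probe, A_72_P105886, which shares 34 bases with O7301, gave 0.39 (SE 0.11, limma adjusted p = 0.0127). COL1A2, the other type I chain, had 4 probes, all above 0, of which 2 passed. Its highest, A_72_P095131, gave 0.32 (SE 0.10, limma adjusted p = 0.0250), with 4.52 ± 0.38 in low and 4.84 ± 0.36 in high RFI pigs (SD, n = 24 pigs each). Of the probes described as collagen alpha-1(I) without a symbol, and so no members, A_72_P442299 was higher (0.35, limma adjusted p = 0.0272) and A_72_P198052 was lower (-0.16, SE 0.05, limma adjusted p = 0.0162).

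COL3A1, the single chain of type III collagen, had line differences of 0.24 (O2412, SE 0.09, limma adjusted p = 0.0669) and 0.23 (A_72_P107126, SE 0.10, limma adjusted p = 0.0992), neither of which passed. For O2412 the medians were 5.71 and 6.04 in low and high RFI pigs on HF, and 5.87 and 6.15 on LF, and the low RFI mean was exceeded by 21 of 24 high RFI pigs. The type V chains, which sit inside type I fibrils and govern their width, had 1 called probe each. These were A_72_P495841 of COL5A1 (0.22, SE 0.07, limma adjusted p = 0.0263, but 0.13 with normexp background correction and not called at 0.14 in the deposited table), A_72_P591869 of COL5A2 (0.22, SE 0.08, limma adjusted p = 0.0345) and A_72_P223917 of COL5A3 (0.23, SE 0.07, limma adjusted p = 0.0309).

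The other 8 type V probes lay between 0.11 and 0.21 and did not pass, among them the representatives A_72_P077826 of COL5A1 (0.13, SE 0.08), A_72_P657188 of COL5A2 (0.15, SE 0.06) and O12663 of COL5A3 (0.13, SE 0.06). COL11A1, COL11A2 and COL27A1, fibrillar chains best known from cartilage, had 4 probes between 0.02 and 0.10, none called. The COL11A1 probe, O6202, carries the glycine repeat on the opposite strand, and whether it measures the COL11A1 transcript was not tested. In all, 7 of 23 fibrillar probes passed, all higher in the high RFI line, and the other 16 also had a value above 0. The median over the 23 was 0.21, the value of COL5A1 O8821. That probe was dim, well above background on 14 arrays, 4 of low and 10 of high RFI pigs. COL11A1 O6202 was so on 12 arrays, 5 of low and 7 of high RFI pigs.

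**Figure D3:**
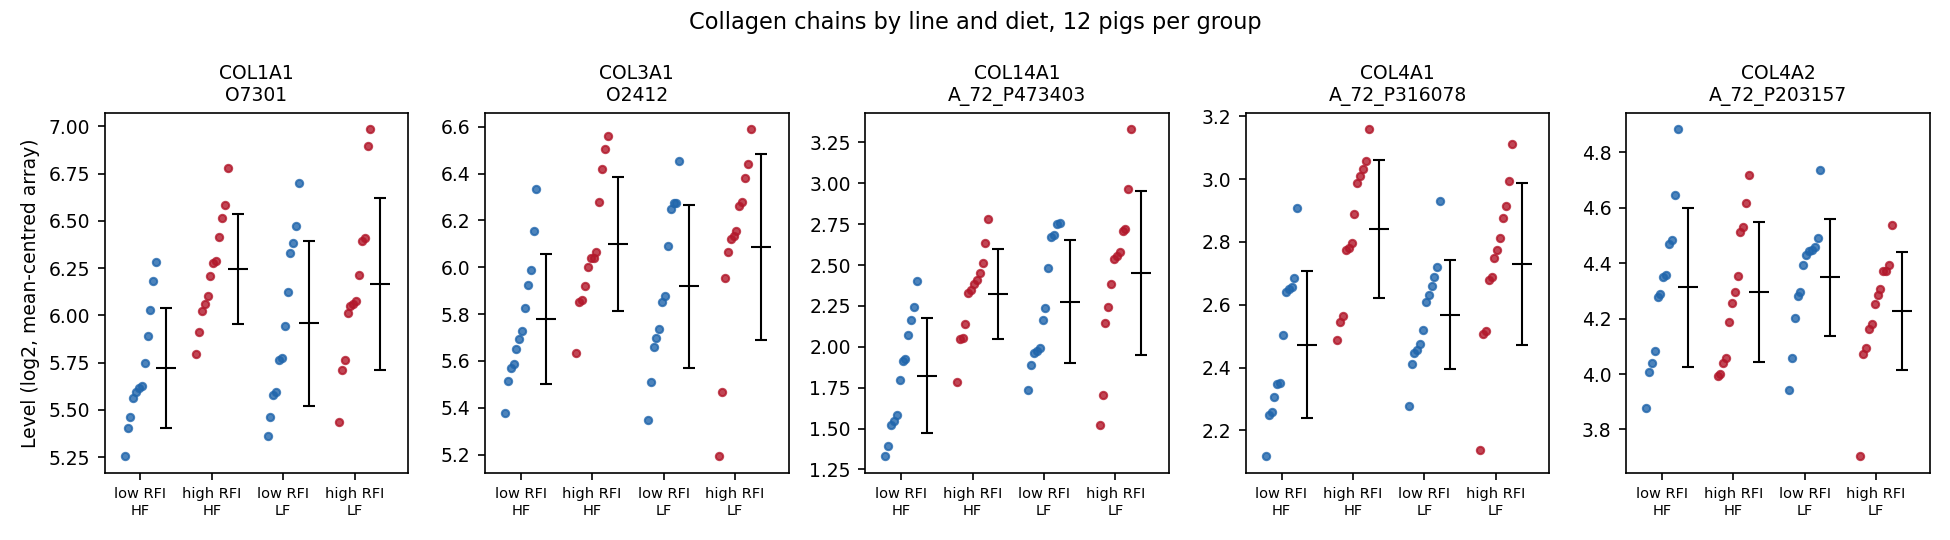
Level (log2, centred array) of the probe with the highest mean for COL1A1, COL3A1, COL14A1, COL4A1 and COL4A2 in 12 pigs of each line and diet, with the mean and SD as a black bar and each panel on its own axis. The lines stand farthest apart on HF for COL1A1, COL14A1 and COL4A1 (0.53, 0.50 and 0.37), and COL4A2 overlaps in all groups.

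Collagen XIV had the most called probes of the collagen genes, and also the most tested probes, 12, against 8 for COL6A3, the next. COL14A1 encodes a fibril-associated collagen that binds to the surface of type I fibrils, and in the high RFI line 9 of its 12 probes were higher, by 0.30 to 0.45, with limma adjusted p from 0.0100 to 0.0489. The widest, A_72_P585771 at 0.45, was 0.30 in the deposited table and 0.24 with normexp background correction, and was called in both. For its highest probe, A_72_P473403, the level ran from 1.33 over a median of 1.85 to 2.40 in low RFI pigs on HF, from 1.79 over 2.37 to 2.78 in high RFI pigs on HF, from 1.74 over 2.20 to 2.76 in low RFI pigs on LF and from 1.52 over 2.55 to 3.33 in high RFI pigs on LF. The low RFI pigs on HF lay lowest, and the high RFI pigs on LF had both the widest range and the highest median. The difference was 0.34 (SE 0.11, limma adjusted p = 0.0276), with 0.50 on HF (limma adjusted p = 0.0416) and 0.17 on LF (limma adjusted p = 0.623).

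The 3 COL14A1 probes that did not pass gave 0.03, 0.04 and 0.11. They cover a single place on the transcript, since A_72_P691868 and O9538 carry the same 60 bases and A_72_P585646 shares 41 of them. The 9 called probes were not independent either, with 36 to 56 shared bases in 5 pairs among them. Other fibril-associated chains were COL12A1 (0.20, SE 0.16), COL16A1 (0.13 and 0.16) and COL21A1, of which A_72_P106971 was higher in the high RFI line (0.27, SE 0.09, limma adjusted p = 0.0358) while the other 3 probes lay between -0.10 and 0.15. The median over the 19 fibril-associated probes was 0.27.

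Type IV chains, the basement membrane collagens, showed a difference at 1 of 3 probes. COL4A1 A_72_P316078 ran from 2.12 over a median of 2.43 to 2.91 in low RFI pigs on HF, from 2.49 over 2.84 to 3.16 in high RFI pigs on HF, from 2.28 over 2.56 to 2.93 in low RFI pigs on LF and from 2.14 over 2.76 to 3.11 in high RFI pigs on LF. Its line difference was 0.26 (SE 0.06, limma adjusted p = 0.00395), the smallest adjusted p of the family after COL7A1, and it was above 0 on 6 of 6 slides. The second COL4A1 probe, O6313, whose helix sequence is printed above, gave 0.03 (SE 0.10, limma adjusted p = 0.847), and its groups overlapped from -1.81 to -0.05.

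COL4A2, the partner chain in the same type IV molecule, gave -0.07 (A_72_P203157, SE 0.07, limma adjusted p = 0.533), with medians of 4.32, 4.28, 4.41 and 4.27 in low RFI on HF, high RFI on HF, low RFI on LF and high RFI on LF. Its 95% interval, -0.21 to 0.07, did not reach the COL4A1 difference of 0.26. A probe named as a COL4A1-like transcript with no collagen symbol, A_72_P527792, which shares 54 bases with A_72_P316078, gave 0.26 (SE 0.07, limma adjusted p = 0.00930). Other probes of that transcript, with no symbol either, gave 0.08 to 0.16 and did not pass.

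Set side by side, the fibrillar probes had a median line difference of 0.21 (range 0.02 to 0.39, n = 23). The basement membrane probes had one of 0.03 (range -0.07 to 0.26, n = 3), against -0.03 over all tested probes. The 0.03 is the value of 1 probe, O6313 of COL4A1. Of the type IV probes without a symbol, which are no members, those of the COL4A1-like transcript ran from 0.08 to 0.26. Those described as COL4A2 gave 0.11 (A_72_P316003) and -0.05 (A_72_P305299). The mean deviation of the fibrillar probes from their 48-pig means was -0.17 ± 0.17 in low RFI pigs on HF, 0.11 ± 0.16 in high RFI pigs on HF, -0.02 ± 0.23 in low RFI pigs on LF and 0.08 ± 0.25 in high RFI pigs on LF (SD, n = 12 each). Of the basement membrane probes it was -0.09 ± 0.24, 0.08 ± 0.24, 0.01 ± 0.14 and -0.01 ± 0.19 in the same order. The difference between the classes was not tested.

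**Figure D4:**
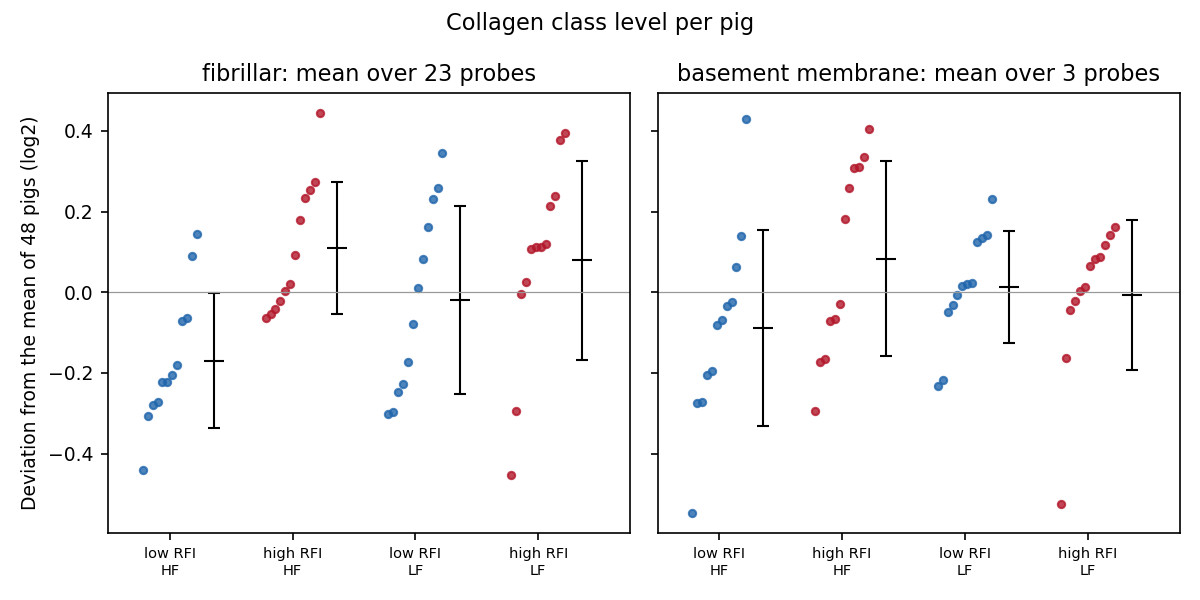
Mean deviation from the 48-pig mean (log2) over the 23 fibrillar and the 3 basement membrane probes in each of 12 pigs per line and diet, with the group mean and SD as a black bar. The fibrillar values of low RFI pigs on HF have the lowest mean, -0.17, and the basement membrane groups overlap.

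Multiplexins, the collagens of the outer basement membrane zone, had 0 of 2 probes called, with 0.12 for COL15A1 (SE 0.07, limma adjusted p = 0.240) and 0.03 for COL18A1 (SE 0.08, limma adjusted p = 0.849), both with an unadjusted limma p above 0.05. The type VI chains COL6A1, COL6A2 and COL6A3, which form the beaded filament around muscle fibres, had 0 of 13 probes called. An unadjusted limma p under 0.05 was found at 3 of the 13, a smaller share than the 13071 of 42125 over all tested probes. The highest probe of each gene gave -0.07 for COL6A1 (A_72_P164311, SE 0.06), 0.15 for COL6A2 (A_72_P267956, SE 0.09) and 0.21 for COL6A3 (A_72_P686971, SE 0.09, limma adjusted p = 0.103). The 2 COL6A1 probes ran from -0.18 to -0.07 and the 8 COL6A3 probes from -0.07 to 0.21. The 3 COL6A2 probes ran from -0.02 to 0.15, and A_72_P267956 and A_72_P514059 among them carry the same 60 bases. A further type VI chain, under the symbol COL29A1, was not counted among the 13 probes and is given below.

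Outside these classes, the 5 probes of COL8A1, COL8A2 and COL10A1 ran from -0.16 to 0.25 and COL17A1 gave -0.04, none called. The lowest of them, COL10A1 O7833, was called lower without the 2 arrays least like the others (-0.27, limma adjusted p = 0.00628). COL29A1 is an older symbol of a further type VI chain gene, so that type VI was not without a called probe. Its probe O7177 was the only one of the 72 called lower in the high RFI line. The level of O7177 ran from 3.19 over a median of 3.83 to 4.59 in low RFI pigs on HF, from 2.72 over 3.49 to 3.80 in high RFI pigs on HF, from 3.14 over 3.69 to 4.08 in low RFI pigs on LF and from 3.097 over 3.38 to 3.70 in high RFI pigs on LF. The lines overlapped, but 20 of 24 low RFI pigs were above the high RFI mean, with a difference of -0.32 (SE 0.08, limma adjusted p = 0.00543). COL6A4P2 O2301, a type VI pseudogene symbol, gave -0.10 (SE 0.04, limma adjusted p = 0.0603) and was below 0 on 6 of 6 slides. COL4A3BP, which is no collagen, was lower at O11006 (-0.23, SE 0.05, limma adjusted p = 0.000557) and gave -0.11 at A_72_P265787.

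The line difference was then taken within each diet. On HF 14 of 72 collagen probes passed (19.4%, against 6.39% of all tested probes), and on LF 1 of 72, the COL7A1 probe A_72_P444117 (1.39%, against 2.47%). The median difference of the 72 probes was 0.22 on HF and 0.07 on LF, against -0.03 on both over all tested probes. For the same line difference, 25 of 25 adipocyte marker probes were above 0 on HF (median 0.49) and 17 of 25 were below 0 on LF (median -0.22), none called on either diet, and their part in the collagen values was not tested. Without the 2 arrays least like the others, both of high RFI pigs on HF, 9 probes passed on HF, of which 7 were among the 14.

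A different count on each diet is not a difference between the diets, and the interaction of line and diet gave 0 calls among all 42125 probes (0%), with a smallest adjusted p of 0.999 among collagen probes. At an unadjusted limma p under 0.05, 5 of 72 collagen probes and 4.45% of all tested probes passed. None of the 5 passed after adjustment, so that they are listed as values and not as differences between the diets. These 5 were both COL5A3 probes (0.38, unadjusted p = 0.0145, and 0.31, unadjusted p = 0.0162), both COL27A1 probes, which share 57 bases (0.33 and 0.38), and COL7A1 A_72_P509990 (0.38), all with a more positive high minus low difference on HF. The difference of A_72_P509990 was below 0 on LF (-0.33). Those of COL27A1 changed sign, with 0.22 and 0.21 on HF and -0.11 and -0.17 on LF. For COL5A3 A_72_P223917 the line difference was 0.42 on HF and 0.04 on LF.

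Within slides the direction did not hold everywhere. Of the 20 called probes, 15 went against their line difference on slide 1, 2 on slide 5 and 0 on the other slides. COL7A1 A_72_P444117, COL4A1 A_72_P316078 and COL5A3 A_72_P223917 were above 0 on 6 of 6 slides. COL1A1 O7301 was between 0.38 and 0.74 on slides 2 to 6 and -0.16 on slide 1, and A_72_P095131 of COL1A2 and A_72_P473403 of COL14A1 were likewise below 0 on slide 1 only (-0.07 and -0.18). On slide 5, COL21A1 A_72_P106971 was -0.07 and COL1A2 A_72_P192797 was -0.01, and COL29A1 O7177 stood at 0.0037 on slide 1 and below 0 on the others. Each slide held 4 pigs of each line, and these values have no test of their own.

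The diet itself gave no called collagen probe. For HF minus LF, 0 of 72 probes passed, against 0.42% of all tested probes, and 15 of 72 had an unadjusted limma p under 0.05, against 13.1% of all. The smallest adjusted p was 0.112, for COL5A1 A_72_P495841, at -0.24 (SE 0.07). The 19 fibril-associated probes all had a value below 0 (median -0.15, range -0.34 to -0.02), as had 19 of 23 fibrillar probes (median -0.08). Over all tested probes 20716 of 42125 were below 0 and the median was 0.00. Of the fibril-associated probes 12 were of COL14A1, some with shared bases, so that these are not independent measurements. For COL14A1 A_72_P473403 the diet difference was -0.29 (SE 0.11, limma adjusted p = 0.221).

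Whether the chains of a molecule varied together was examined over the 48 pigs for 8 pairs of genes, with two-sided permutation tests. COL1A1 and COL1A2, the chains of type I collagen, had r = 0.93 (unadjusted permutation p = 1e-05) and rho = 0.92 (adjusted permutation p = 2.67e-05). The relation held without the 2 pigs farthest from the median (0.92), within the low RFI line (0.92), within the high RFI line (0.91) and after removal of group and slide means (0.92). The p of 1e-05 for r is the smallest that 100000 permutations can give.

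COL1A1 and COL3A1 had r = 0.83 (rho = 0.82) and COL3A1 and COL5A2 had r = 0.85 (rho = 0.87), with the same permutation p values. After removal of group and slide means r was 0.80 and 0.83. Without the 2 farthest pigs r was 0.83 and 0.85. COL1A1 with the basement membrane chain COL4A1 gave r = 0.58 (unadjusted permutation p = 1e-05) and rho = 0.59 (adjusted permutation p = 4e-05). For this pair r was 0.61 without the 2 farthest pigs, 0.54 in low and 0.39 in high RFI pigs, and 0.44 with group and slide means removed. COL1A1 with SERPINH1, the chaperone of procollagen, gave r = 0.51 (rho = 0.51, adjusted p = 0.000256 and 0.000528), and 0.44 without the 2 farthest pigs.

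For the chains of type IV the relation did not pass. COL4A1 with COL4A2 gave r = 0.17 (rho = 0.10, adjusted permutation p = 0.299 and 0.478), with 0.07 in the low and 0.48 in the high RFI line, 0.11 without the 2 farthest pigs and 0.35 after removal of group and slide means. COL6A1 with COL6A3 gave r = 0.15 (rho = 0.16, adjusted permutation p = 0.299 for each), 0.13 without the 2 farthest pigs and 0.28 after removal of group and slide means. COL1A1 with MYH7, the slow myosin of muscle fibres, gave r = -0.16 (rho = -0.17, adjusted permutation p = 0.299 for each), -0.22 without the 2 farthest pigs and -0.16 after removal of group and slide means.

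**Figure D5:**
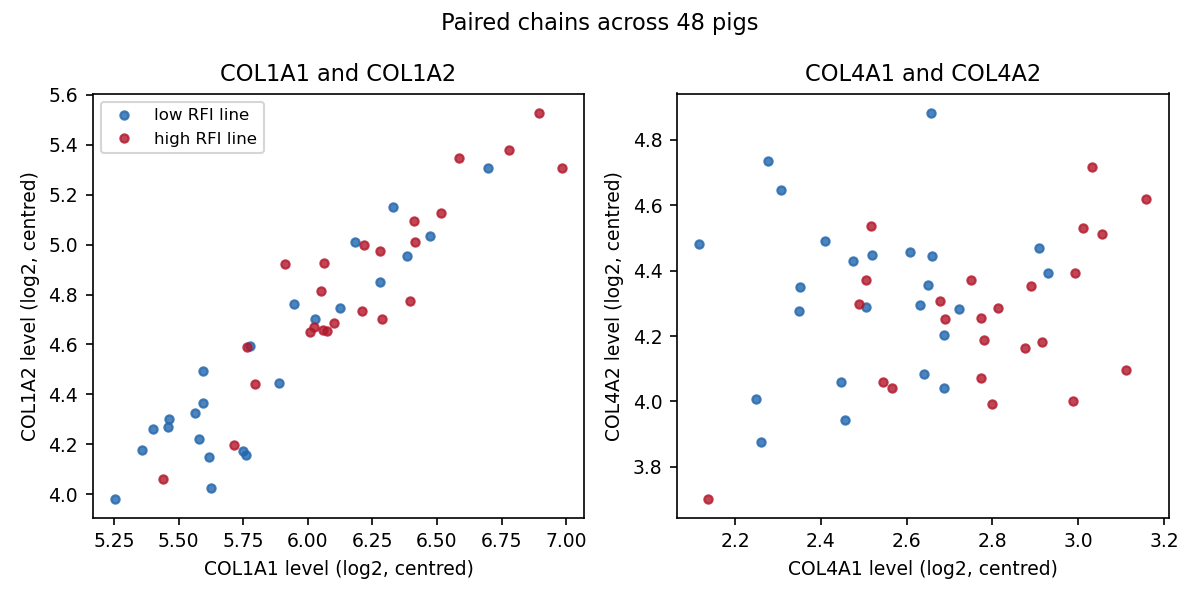
Level (log2, centred array) of COL1A2 against COL1A1 and of COL4A2 against COL4A1 at the highest probe of each gene, with a point for each of the 48 pigs coloured by line. The type I chains lie along a line (r = 0.93), and the type IV chains are scattered more widely (r = 0.17).

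Genes that make, process, bind and break down collagen were counted by list, on 122 tested probes, of which 17 differed between the lines, 11 higher with high RFI and 6 lower (13.9%, against 16.4% of all tested probes). Turnover was the list with the most calls, with 7 of 21 probes higher (33.3%) and 0 lower, and a median of 0.18. TIMP1, an inhibitor of matrix metalloproteinases, was higher at 4 of 4 probes, at A_72_P444809 by 0.61 (SE 0.14, limma adjusted p = 0.00257). MMP14, a membrane collagenase, was higher by 0.32 (SE 0.09, limma adjusted p = 0.0116), and CTSK, the collagen-degrading cathepsin K, at 2 of 5 probes, by 0.21 and 0.22. MMP2, MMP9 and TIMP2 had 0 of 2 probes called each.

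Of the 33 probes for chain folding and modification, 3 were higher and 1 lower (12.1% called, against 16.4% of all tested probes), with a median of 0.02. FKBP10, a prolyl isomerase of procollagen, was higher at 2 of 2 probes (0.23 at each), and GLT25D1, a collagen galactosyltransferase, by 0.16. MIA3, which loads procollagen into transport carriers, was lower at 1 of 2 probes (-0.30, SE 0.06, limma adjusted p = 0.000203). The prolyl hydroxylase P4HA1 had 0 of 9 probes called and SERPINH1 0 of 3, although SERPINH1 A_72_P693455 was the only probe of these lists called for the diet, lower on HF by 0.24 (diet difference -0.24, limma adjusted p = 0.0338).

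For propeptide removal and crosslinking 1 of 18 probes was higher and 2 were lower (16.7% called, near the 16.4% of all tested probes). LOX, the enzyme that crosslinks collagen, was higher at 1 of 3 probes (0.60, SE 0.15, limma adjusted p = 0.00372), ADAMTS14, a procollagen peptidase, was lower (-0.20), and PCOLCE2, which enhances propeptide removal, was lower at 1 of 6 probes (-0.59). The fibril-binding proteoglycans, decorin (DCN) and lumican (LUM) among them, had 0 of 24 probes called. An unadjusted limma p under 0.05 was found at 5 of the 24, a smaller share than the 13071 of 42125 over all tested probes. Of the basement membrane partners 1 of 10 was lower (10%), LAMB2 of laminin (-0.25, limma adjusted p = 0.0248). Of the receptors 2 of 16 were lower (12.5%), both of the collagen receptor DDR1 (-0.34 and -0.31). Over all tested probes 9.85% were lower.

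Markers of cell types were counted against the same 16.4% of all tested probes called for the line. Called higher in high RFI pigs were 1 of 24 fibroblast probes (4.17%, FBLN1, 0.39) and 2 of 17 endothelial probes (11.8%, both TEK). So were 8 of 25 adipocyte probes (32%, all FABP4, 0.30 to 0.61) and 2 of 8 leukocyte probes (25%, both CD14). The calls in each of these lists came from 1 gene, and the lists are small, so that the shares do not rank the cell types. Of 69 muscle fibre probes 16 (23.2%) were lower (MYH2, MYH4, TNNT3 and CKM, with -0.27 to 0.13 over the list). Of 3 Schwann cell probes 1 was lower (S100B, -0.34). The mean deviation of the fibroblast list ran from -0.42 to 0.46 in low and from -0.38 to 0.36 in high RFI pigs, of the adipocyte list from -1.25 to 1.04 and from -0.92 to 1.29, of the leukocyte list from -0.53 to 0.50 and from -0.56 to 0.77, and of the muscle fibre list from -0.15 to 0.31 and from -0.25 to 0.18. The DCN and LUM probes of the fibroblast list also stood in the proteoglycan list. The keratinocyte markers KRT5 and DSG3 had 0 of 2 probes called. The part of these cell types in the collagen differences was not tested.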

How the data were processed

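Per the labels, total RNA of longissimus muscle was labelled with Cy3, and the authors' scanner files hold spot intensities from Agilent Feature Extraction; the submitters' processing notes name R 2.10.0. A deposited table of 34472 probes holds log2 median signals minus each array's median, and served as an alternative. Here, outlier spots were removed, processed signals were put on the log2 scale and centred per array on the mean of the tested probes, and 42125 probes (well above background on 12 or more arrays) were tested with limma 3.58.1 in R 4.3.3. Permutation tests used 100000 draws (Python 3.11.15, numpy 2.4.6). The fit was first checked on simulated data.

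The members and lists were chosen with earlier results of these data known. Probes named were every COL7A1 probe, every collagen probe called in any contrast, the highest probe of the main chains, and at most 3 called probes per list, to which a few values seen afterwards were added. All titles carry the same replicate label, so samples were numbered by the pig number in the title. The deposited files named no genome build, so no coordinates are given.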

Additional observations from a re-analysis of the deposited data

How the results depend on the processing

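Of the alternatives tried, the scaling to the 75th percentile, quantile normalization, normexp background correction with an offset of 50, a filter of 48 arrays, outlier spots kept, slide as a block, the deposited table and the omission of the 2 arrays least like the others (added after seeing the data) gave 16 to 23 called collagen probes for the line, against 20. With no filter on dim probes 11 were called for the line, 0 on HF and 8 of the partner gene probes (against 17). On HF, 9 were called without the 2 arrays, against 14. Including the 22 tested probes described as a collagen with no symbol, 23 of 94 were called. On LF the count was 1, and for diet and interaction 0, under every alternative run. COL7A1 A_72_P444117 was called under all 9, at 2.37 to 2.45, as were both COL1A1 probes, COL29A1 and, under all 8 that tested it, COL4A1 A_72_P316078. COL14A1 A_72_P611566 was called under 4 of 9, and of the probes not called in the report COL3A1 O2412 was called higher under 3 of 9, COL6A4P2 O2301 lower under 2 and COL10A1 O7833 lower under 1. Small values changed sign: COL11A1 O6202 was -0.060 with normexp and -0.026 with quantile normalization, COL18A1 -0.010 without the 2 arrays, and SERPINH1 A_72_P693455 0.0012 with normexp. The basement membrane median was -0.03 in the deposited table and 0.00 without the 2 arrays, and the fibrillar median stayed between 0.17 and 0.23. COL6A1 with COL6A3 gave r = 0.29 in the deposited table and 0.31 with normexp, COL4A1 with COL4A2 0.29 with no filter, past an unadjusted 0.05, and COL1A1 with MYH7 0.14 with quantile normalization. The cause of these changes was not tested. No paired analysis was possible because the labels give every sample the same replicate label and no pig lies in more than 1 group. Dim probes limit what can be said of the 10 genes not kept.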
